A study of Sus scrofa with 24 samples.

Results

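The genes described here encode the proteins that join neighbouring cells: claudins, occludin, tricellulin, the adhesion molecule JAM-A and the scaffold ZO-1 of tight junctions, classical and other cadherins with their catenins, desmosomal proteins, and the connexins of gap junctions. They were chosen by symbol alone, as every CLDN, TJP, CDH, PKP, DSG, DSC, CTNNA, GJA, GJB or GJC gene with a number, plus OCLN, CTNNB1, F11R and MARVELD2. Of the 10882 genes with a value on the array, 44 fell under that rule. The RefSeq gene table of the pig (assembly Sscrofa11.1) lists 82 symbols that meet it, so the array read 44 of 82.

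The tissue was oxyntic mucosa, the acid-secreting lining of the body of the stomach, from 24 piglets of 3 weeks of age of a (Great York × Pietrain) × 'Dalland' cross, all delivered by caesarean section. Every piglet was given pasteurized sow colostrum by mouth after birth and then a starter mix of Lactobacillus amylovorus, Clostridium glycolicum and Parabacteroides spp. Piglets of the complex association (CA) afterwards received diluted faeces of an adult sow, and piglets of the simple association (SA) a placebo. From the end of milk replacer feeding, piglets ate either a moist diet with coconut oil in place of most of the soy and palm oil (MCT, medium chain triglycerides) or the same moist diet without that exchange (CON). The 4 groups were CA MCT, CA CON, SA MCT and SA CON, with 6 piglets each, so that 12 CA piglets could be set against 12 SA piglets and 12 MCT piglets against 12 CON piglets. The label text places CA and SA piglets in separate rooms but gives no room for single piglets. The paper's account of housing can be read as groups sharing rooms. An effect of room therefore cannot be separated from that of the microbiota here.

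In an epithelium, tight junctions seal the space between cells near the lumen and set which ions pass, adherens junctions and desmosomes tie the cytoskeletons of neighbours together, and gap junctions let small molecules move from cell to cell. Claudins are the strands of the tight junction, cadherins bind their like on the next cell through calcium, and catenins couple cadherins to actin. In the stomach this seal also keeps secreted acid out of the tissue. Other junctions lie outside the epithelium, in vessels, muscle and nerve, and whole mucosa holds all of these cells. In such bulk RNA, fewer cells of a type and less RNA per cell cannot be told apart.

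Values are array intensities on the log2 scale, where 1 unit is a doubling of intensity. The brightness of a probe set (here called a cluster) depends on its probes, so brightness is not compared between genes as an amount of RNA. As a landmark, each gene was set against the median of all clusters on the same array. By that landmark 17 of the 44 genes were bright on all 24 arrays, 20 were bright on none, and 7 on some. The tissue label was checked against marker genes. ATP4A and ATP4B, the subunits of the gastric proton pump of parietal cells, averaged 11.80 and 11.38, and PGC of chief cells 11.18. Of 5 intestinal epithelial genes with a cluster, CDX1, CDX2 and FABP2 were above the array median on no array, GUCA2A was on 11 and VIL1, a microvillus protein, on all 24 (mean 7.46). KRT5 and IVL of squamous epithelium and PDX1 of the pyloric region were above it on no array, and GAST, the gastrin gene of the pyloric region, on all 24 (mean 5.37). The arrays of 3 piglets stood apart from the rest: the median correlation with the other arrays was 0.946 for pig 4 (CA CON), 0.975 for pig 10 (CA MCT) and 0.981 for pig 22 (SA MCT), against 0.987 to 0.992 for the other 21. Among the junction genes, pig 4 held the highest of the 24 values in 7 of the 20 genes that were dim throughout, and the lowest in 5 of the 17 bright ones. Values without them stand beside some of the named differences that moved when they were left out.

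**Figure D1:**
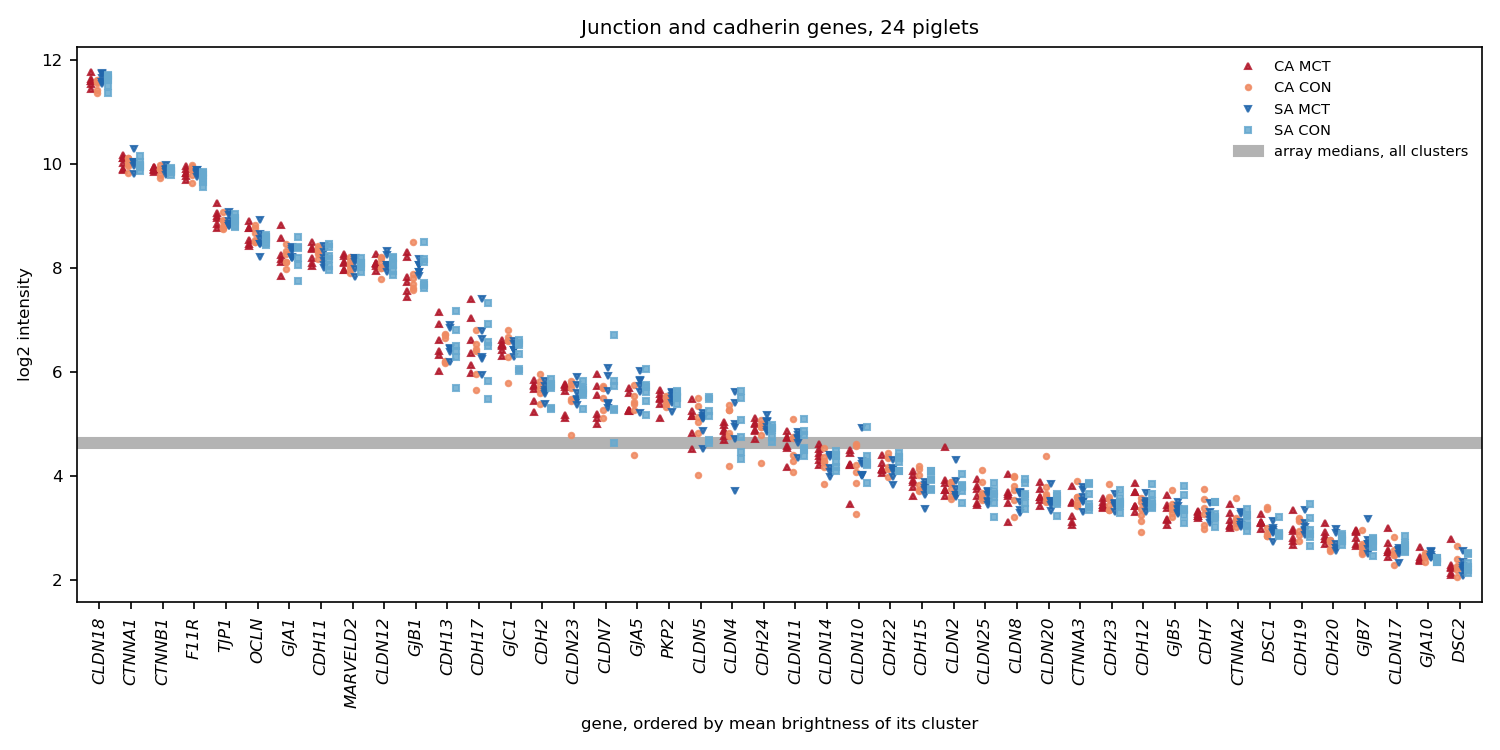
Log2 intensity of each of the 44 junction and cadherin genes (horizontal axis, ordered by mean brightness) in each of the 24 piglets, with 1 symbol per piglet and the 4 groups side by side. The grey band spans the array medians of all clusters. Every gene's 4 groups overlap, 17 genes lie above the band on all arrays, and CDH17, CLDN7 and CLDN4 scatter most between piglets.

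Several tight junction genes were bright on every array and spanned a small range in log2 units. CLDN18, the claudin characteristic of the stomach, read 11.44 at the lowest, 11.59 at the median and 11.76 at the highest in CA MCT piglets, and 11.36, 11.58 and 11.61 in CA CON piglets. In SA MCT piglets CLDN18 read 11.53, 11.61 and 11.75, and in SA CON piglets 11.36, 11.63 and 11.70. All 4 groups overlapped, and the whole range over 24 piglets was 0.41, or 1.33-fold in intensity. F11R, which encodes JAM-A, an immunoglobulin-type molecule at the upper end of the junction, spanned 9.56 to 9.98 over all piglets in a range of 0.42. TJP1, the scaffold ZO-1 under the membrane, averaged 8.97 ± 0.17 in CA MCT, 8.87 ± 0.12 in CA CON, 8.91 ± 0.12 in SA MCT and 8.91 ± 0.10 in SA CON piglets (SD, n = 6 each).

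OCLN, which encodes occludin, a membrane protein of the tight junction, averaged 8.64 ± 0.19 in CA MCT, 8.63 ± 0.14 in CA CON, 8.54 ± 0.23 in SA MCT and 8.55 ± 0.07 in SA CON piglets. MARVELD2, which encodes tricellulin, the related protein where 3 cells meet, averaged between 8.06 and 8.10 in the 4 groups. OCLN and MARVELD2 are direct neighbours in the pig assembly. Their deviations from the group means did not run together over the 24 piglets (Pearson r = -0.22, permutation p = 0.294, adjusted p = 0.538; Spearman rho = -0.07, permutation p = 0.751).

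The claudins split by brightness. Of 14 claudins measured (22 symbols in RefSeq), CLDN18, CLDN12 and CLDN23 were bright on all arrays, and CLDN2, CLDN8, CLDN14, CLDN17, CLDN20 and CLDN25 on none. CLDN2 forms pores for cations and water in leaky epithelia. It read 3.47 to 4.55 over the 24 piglets, and the value of 4.55 was that of pig 10. CLDN5, the claudin of vessel endothelium, was above the array median on 20 arrays, CLDN7 on 23, CLDN4 on 19, CLDN11 on 13 and CLDN10 on 2. CLDN4 and CLDN7 are sealing claudins of many lining epithelia. CLDN1 and CLDN3 had no cluster under their symbols and were not analysed here.

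Of the adherens junction genes, the catenins of epithelia were bright and held a narrow range. CTNNB1, which encodes beta-catenin, the partner of cadherin tails and also a transcriptional cofactor of the Wnt pathway, averaged 9.90 ± 0.04 in CA MCT, 9.87 ± 0.09 in CA CON, 9.88 ± 0.06 in SA MCT and 9.86 ± 0.04 in SA CON piglets. Its 24 values spanned 0.25, or 1.19-fold. CTNNA1, the alpha-catenin that reaches actin, averaged 10.03, 10.01, 10.02 and 9.98 in the same 4 groups. The neural and the heart form of alpha-catenin, CTNNA2 and CTNNA3, were above the array median on no array. Of 12 cadherins measured (22 in RefSeq), CDH11, CDH13, CDH17 and CDH2 were bright on all arrays. None of these is the main cadherin of gastric epithelium, which is CDH1. CDH1 had no cluster under its symbol, nor had CDH5 of endothelium or CDH16 of kidney. Group means lay between 8.18 and 8.31 for CDH11, 6.44 and 6.57 for CDH13, 6.30 and 6.59 for CDH17 and 5.61 and 5.69 for CDH2. CDH11 is a cadherin of mesenchymal cells, CDH2 (N-cadherin) of neural and mesenchymal cells, CDH13 a lipid-anchored cadherin of vessels and muscle, and CDH17 the cadherin of intestinal lining cells. Of the others, CDH24 was above the array median on 22 arrays, and CDH7, CDH12, CDH15, CDH19, CDH20, CDH22 and CDH23 on none. CDH15 is the cadherin of skeletal muscle precursors and CDH23 part of the tip links of hair cells.

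Desmosomes were thinly covered, with 2 of 7 desmosomal cadherins and 1 of 4 plakophilins. PKP2, a plaque protein of desmosomes in simple epithelia and heart, was bright on all arrays and averaged between 5.44 and 5.52 in the 4 groups. DSC1 and DSC2, desmosomal cadherins, were dim throughout, and DSG2, the desmoglein of simple epithelia, had no cluster under its symbol.

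Among 7 connexins (17 in RefSeq), GJA1, GJB1 and GJC1 were bright on all arrays. GJB1 encodes connexin 32, the gap junction protein of secretory epithelia. It averaged 7.84 ± 0.35 in CA MCT, 7.84 ± 0.34 in CA CON, 7.99 ± 0.12 in SA MCT and 7.96 ± 0.35 in SA CON piglets. GJA1, connexin 43, the most widespread connexin, averaged 8.29, 8.21, 8.28 and 8.22 in these groups. GJA5, connexin 40 of arterial endothelium, was above the array median on 23 arrays. GJC1 averaged 6.48 ± 0.11 in CA MCT, 6.46 ± 0.37 in CA CON, 6.44 ± 0.11 in SA MCT and 6.35 ± 0.26 in SA CON piglets. GJB5, GJB7 and GJA10 were above the array median on none, and GJB2 had no cluster under its symbol.

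Over the 20 genes that were dim throughout, mean values ran from 2.29 (DSC2) to 4.29 (CLDN14), and the range over the 24 piglets from 0.30 (GJA10) to 1.15 (CLDN20).

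For 5 genes the array carried a further cluster of the same symbol. The 2 clusters of CLDN14 and those of GJC1 held identical values on all 24 arrays and so are 1 reading each. The dimmer cluster of CTNNA1 averaged 9.09 and ran with the brighter one (r = 0.61 over the 24 piglets, as a description). For CDH7 the correlation between clusters was 0.42 and for CDH22 -0.05, so the 2 clusters of CDH22 did not follow each other.

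The first comparison set complex against simple starter microbiota. None of the 44 genes differed between CA and SA piglets over both diets at an adjusted p under 0.05 (limma, Benjamini-Hochberg over 10882 genes), and none of the 10882 genes did. At an unadjusted p under 0.05 there were 2 of 44, GJA5 and DSC1, beside 4.14% of all genes. The differences of the 44 ran from -0.32 to 0.18, with 24 above 0 and 20 below and a median of 0.0083, beside 49.5% of all genes above 0 and a median of -0.0010. Among the 17 genes bright on all arrays the differences ran from -0.14 (GJB1) to 0.09 (OCLN), and among the 20 dim genes from -0.11 (CTNNA3) to 0.18 (CLDN20).

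GJA5 had the widest difference. In CA piglets it read 4.41 at the lowest, 5.32 at the median and 5.74 at the highest, and in SA piglets 5.17, 5.72 and 6.05. The groups overlapped, though 11 of 12 CA piglets lay below the SA median and 5 of 12 SA piglets above every CA piglet. The difference was -0.32 (SE 0.12, 95% interval -0.58 to -0.07), or 0.80-fold in CA over SA, with an unadjusted p of 0.0148 and a limma adjusted p of 0.943. It was -0.32 within MCT piglets and -0.33 within CON piglets, and the interaction was 0.01 (SE 0.25). The lowest GJA5 value, 4.41, belonged to pig 4. Without pig 4 the difference over both diets was -0.24 and that within CON piglets -0.15, and without pigs 4, 10 and 22 the difference over both diets was -0.23.

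GJA5 is a vessel gene, so endothelial markers stand beside it. The mean deviation of PECAM1, VWF, KDR, TEK and ROBO4 (5 of 8 listed endothelial genes had a cluster, all 5 bright on all arrays) ran from -0.23 to 0.20 in CA piglets and from -0.37 to 0.23 in SA piglets, with means of 0.03 and -0.03. GJA5 averaged 5.34 in CA and 5.66 in SA piglets. The mean of 4 general epithelial markers (EPCAM, KRT8, KRT18, KRT19) ran from -0.29 to 0.16 in CA and from -0.12 to 0.30 in SA piglets, with means of -0.06 and 0.06. The part of cell makeup in the GJA5 difference was not tested further.

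DSC1, a desmosomal cadherin known from the outer layers of skin, read 2.84, 3.10 and 3.40 at the lowest, median and highest in CA piglets and 2.73, 2.90 and 3.20 in SA piglets. The groups overlapped and the whole range lay below the array medians. The difference was 0.15 (SE 0.07), with an unadjusted p of 0.0424 and a limma adjusted p of 0.943. Its highest value, 3.40, was that of pig 4. Without pig 4 the difference was 0.11.

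**Figure D2:**
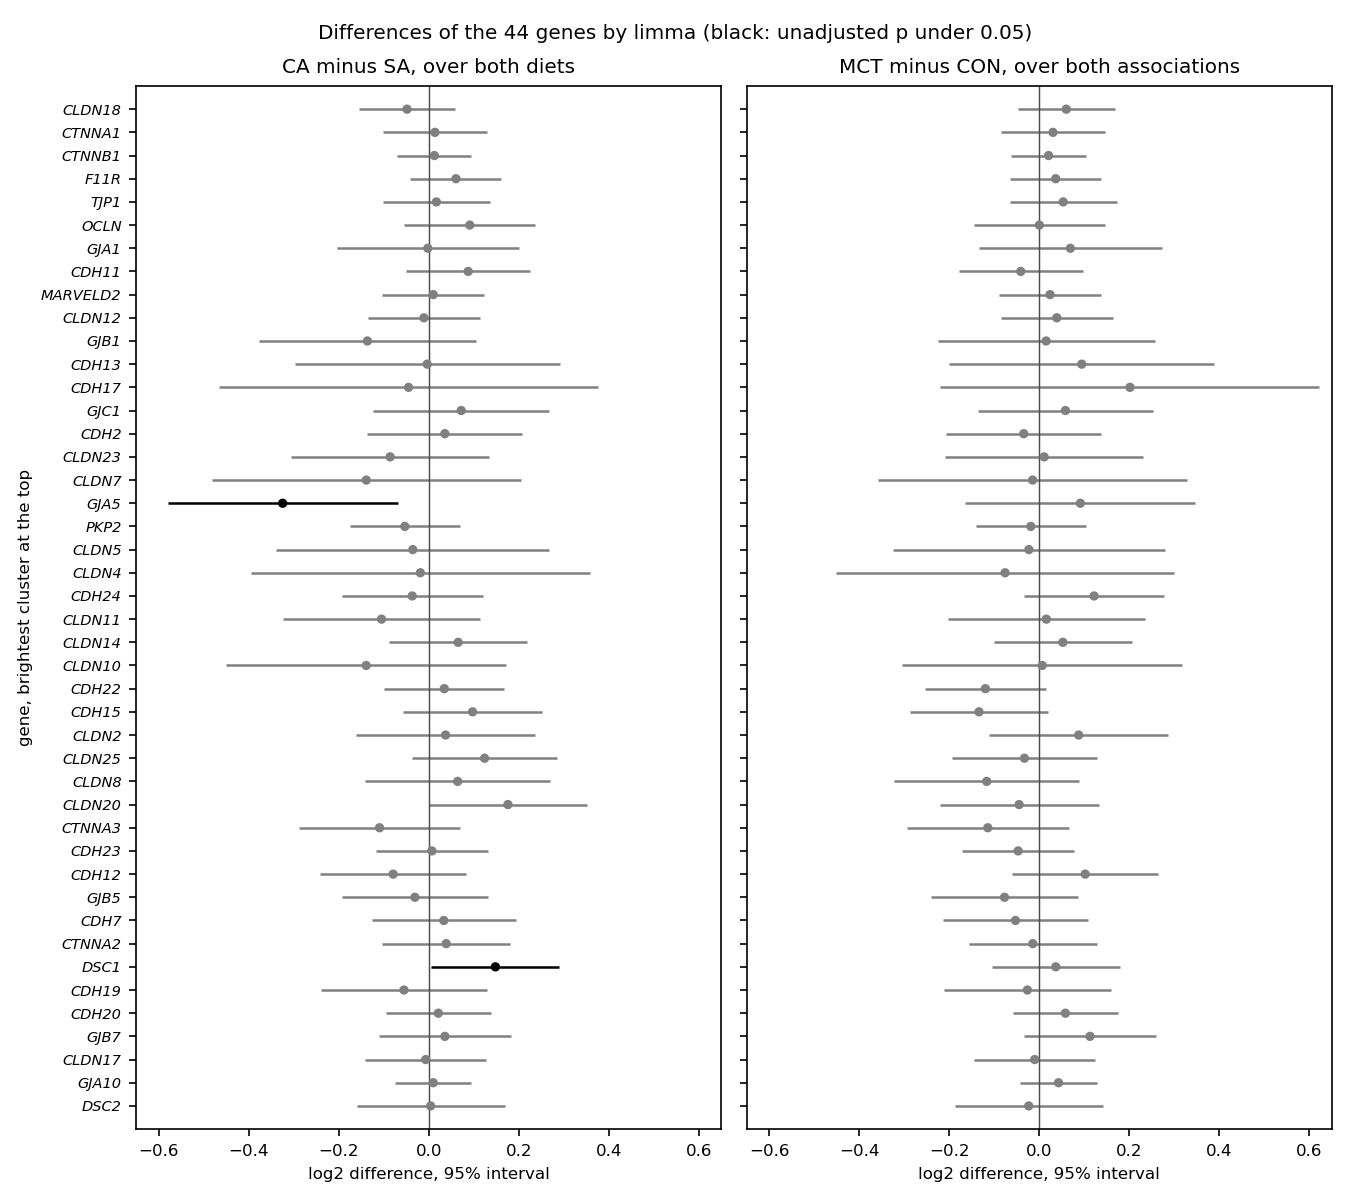
Log2 differences of the 44 genes, CA minus SA over both diets (left) and MCT minus CON over both associations (right), as points with 95% intervals from limma, brightest gene at the top. GJA5 and DSC1 are drawn in black for an unadjusted p under 0.05 on the left, and no gene is on the right. No adjusted p passed on either side.

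Several bright genes of tight and adherens junctions had narrow intervals in this comparison. CTNNB1 differed by 0.01 between CA and SA piglets with a 95% interval of -0.07 to 0.09, CTNNA1 by 0.01 (-0.10 to 0.13) and TJP1 by 0.02 (-0.10 to 0.14). CLDN18 differed by -0.05 (-0.16 to 0.06), F11R by 0.06 (-0.04 to 0.16) and OCLN by 0.09 (-0.05 to 0.24). The genes that scattered most between piglets left wide intervals: -0.47 to 0.38 for CDH17, -0.48 to 0.20 for CLDN7 and -0.39 to 0.36 for CLDN4. For 43 of the 44 genes the interval lay within 0.5 log2 units of 0, and the exception was GJA5. Such intervals were not counted over all genes. A p above the threshold does not show that the groups were alike, and these intervals give the sizes that remain possible.

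Within CON piglets, none of the 44 genes passed the adjusted threshold between CA and SA, and 2 of 44 had an unadjusted p under 0.05, beside 4.25% of all genes. They were CDH12 and CLDN20, and both were dim. CDH12, a cadherin of the nervous system, read 2.92, 3.30 and 3.57 at the lowest, median and highest in CA CON piglets and 3.38, 3.49 and 3.85 in SA CON piglets. The groups overlapped by the upper CA CON values, and the difference was -0.25 (SE 0.11, unadjusted p = 0.0324, limma adjusted p = 0.943). The lowest value, 2.92, was that of pig 4, and without it the difference was -0.18 and its unadjusted p was no longer under 0.05.

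CLDN20 read 3.50, 3.63 and 4.38 in CA CON piglets and 3.23, 3.51 and 3.65 in SA CON piglets. The value of 4.38 was that of pig 4, and 4 of the other 5 CA CON piglets lay within the SA CON range. The difference was 0.25 (SE 0.12, unadjusted p = 0.0498, limma adjusted p = 0.943). Without pig 4 it was 0.12.

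In the same comparison F11R read 9.63, 9.89 and 9.98 in CA CON piglets and 9.56, 9.74 and 9.85 in SA CON piglets. Most CA CON piglets lay above the SA CON group, and the lowest CA CON value was again that of pig 4. Without pig 4 the difference was 0.17, with an unadjusted p under 0.05. In that fit 3 of 44 genes, CLDN17, F11R and GJC1, had such a p, beside 4.39% of all genes. Of the 24 fits without 1 piglet, each of these 3 genes had such a p in 1 only. With all piglets the F11R difference was 0.12 (SE 0.07, unadjusted p = 0.0847, limma adjusted p = 0.943), while within MCT piglets it was -0.0040 (95% interval -0.15 to 0.14). The interaction between association and diet for F11R was -0.13 (SE 0.10, unadjusted p = 0.202). Within CON, 17 of the 44 genes were above 0, beside 49.9% of all genes.

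Within MCT piglets no gene of the 44 passed at either threshold between CA and SA, beside 2.66% of all genes at an unadjusted p under 0.05, and 26 of 44 were above 0, beside 48.1% of all genes. The differences ran from -0.32 for GJA5 to 0.18 for CDH15, whose unadjusted p was 0.0971. Without pig 22, the lowest in CDH15, the CDH15 difference was 0.11. CLDN14 and CTNNA3, the other genes at the ends, differed by 0.18 and -0.20.

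**Figure D3:**
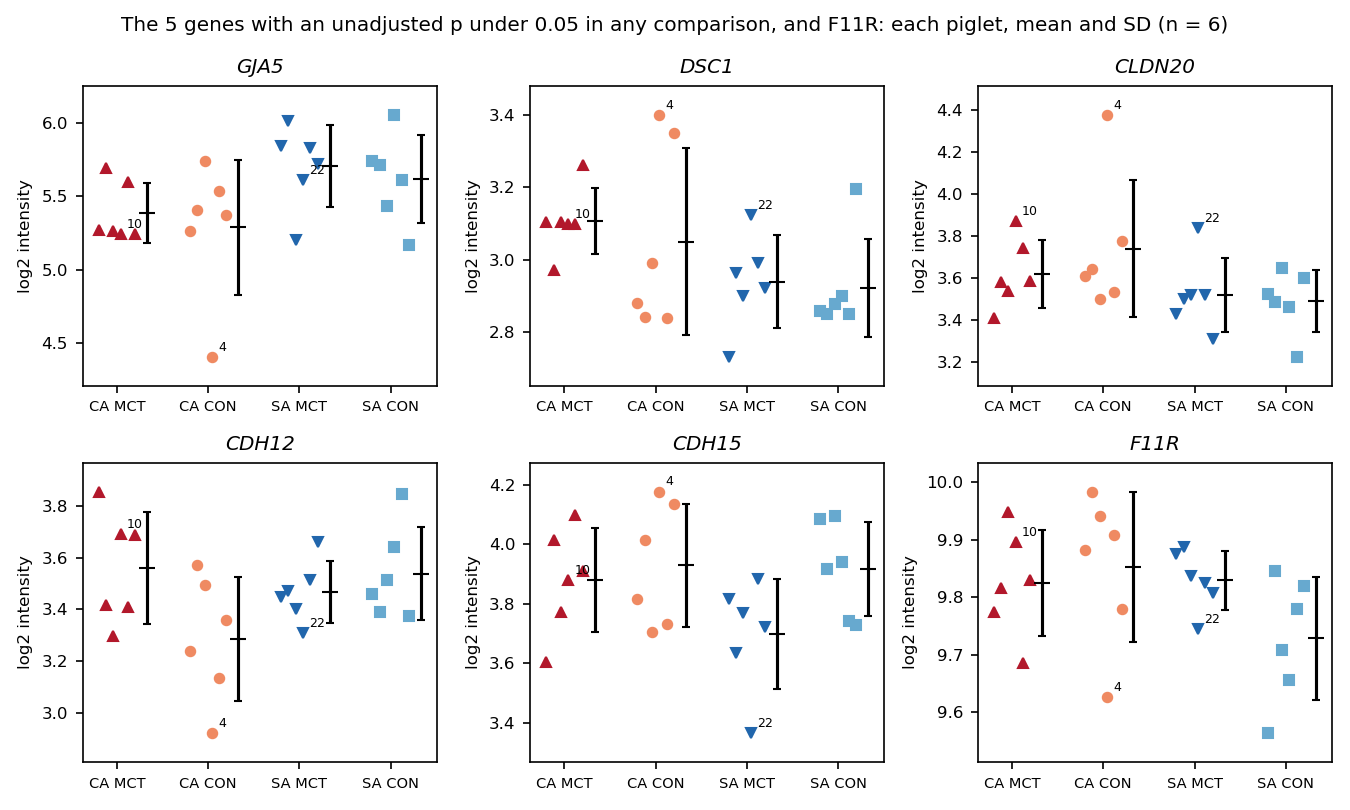
Log2 intensity in each piglet for the 5 genes with an unadjusted p under 0.05 in any of the 7 comparisons and for F11R, by group from left to right CA MCT, CA CON, SA MCT and SA CON, with the group mean and SD (n = 6) in black and pigs 4, 10 and 22 numbered. Pig 4 holds the lowest GJA5 value (4.41) and the highest CLDN20 value (4.38), and the groups overlap in every panel.

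The second comparison set the MCT against the CON diet. Over both associations none of the 44 genes passed at an adjusted or an unadjusted p under 0.05, beside 2.34% of all genes at the unadjusted threshold (none of 10882 at the adjusted one, limma). Of the 44, 24 were above 0 and 20 below, beside 51% of all genes above 0. Above 0 were 13 of the 17 genes bright on all arrays and 7 of the 20 dim ones. These shares were again not counted over all bright or all dim genes. The differences of the 44 ran from -0.13 to 0.20. The upper end was CDH17. It read 5.94, 6.49 and 7.40 at the lowest, median and highest in MCT piglets and 5.47, 6.47 and 7.32 in CON piglets. The medians nearly coincided and the groups overlapped almost fully, and the difference of 0.20 had a 95% interval of -0.22 to 0.62. Without pigs 4, 10 and 22 the CDH17 difference was 0.083. The lower end was CDH15 at -0.13 (SE 0.07, unadjusted p = 0.0839), and CDH22 followed at -0.12 (SE 0.06, unadjusted p = 0.0766), a value of its brighter cluster that became 0.0067 with the mean of its 2 clusters. At the upper end of the test statistic, CDH24 differed by 0.12 and GJB7 by 0.11. Without pig 4, the lowest of its group in CDH24, the CDH24 difference was 0.064, and without pig 24 that of GJB7 was 0.069. Without pigs 4, 10 and 22 that of CDH15 was -0.076.

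The diet intervals of several bright genes were again narrow. CLDN18 differed by 0.06 between MCT and CON piglets (95% interval -0.05 to 0.17), TJP1 by 0.05 (-0.07 to 0.17), F11R by 0.04 (-0.06 to 0.14) and CTNNB1 by 0.02 (-0.06 to 0.10). OCLN averaged 8.59 in MCT and 8.59 in CON piglets, with an interval of -0.15 to 0.15. The intervals of CLDN4 (-0.45 to 0.30), CLDN7 (-0.36 to 0.33) and CLDN5 (-0.33 to 0.28) were wide.

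Within CA piglets, 1 of 44 genes had an unadjusted p under 0.05 for the diet, beside 3% of all genes, and none passed the adjusted threshold. It was CDH12, which read 3.30, 3.55 and 3.86 at the lowest, median and highest in CA MCT piglets and 2.92, 3.30 and 3.57 in CA CON piglets. The groups overlapped between 3.30 and 3.57, and the difference was 0.27 (SE 0.11, unadjusted p = 0.0208, limma adjusted p = 0.999). Without pig 4 it was 0.20, again with an unadjusted p no longer under 0.05, and without pigs 4, 10 and 22 it was 0.17. Of the 44, 25 were above 0, beside 50.5% of all genes. CDH20 followed at 0.16 (unadjusted p = 0.0523), and at 0.096 without pigs 4, 10 and 22.

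Within SA piglets, 1 of 44 had an unadjusted p under 0.05 for the diet, beside 2.04% of all genes. It was CDH15, which read 3.36, 3.75 and 3.88 in SA MCT piglets and 3.73, 3.93 and 4.09 in SA CON piglets. The groups overlapped between 3.73 and 3.88, and the difference was -0.22 (SE 0.11, unadjusted p = 0.0485, limma adjusted p = 1.00). The lowest value, 3.36, was that of pig 22, and without it the difference was -0.15. Of the 44, 23 were above 0, beside 52.5% of all genes. GJA10, a connexin of the retina, and F11R each differed by 0.10, and CDH22 by -0.18 (unadjusted p = 0.0579), or by -0.02 with the mean of its 2 clusters.

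The interaction, which asks whether the association difference depended on the diet, had 1 of 44 genes at an unadjusted p under 0.05, beside 2.53% of all genes, and none at the adjusted one. CDH12 gave 0.34 (SE 0.16, unadjusted p = 0.0376, limma adjusted p = 1.00), as CA minus SA was 0.09 within MCT piglets and -0.25 within CON piglets. Without pig 4 the CDH12 interaction was 0.27 and its unadjusted p was no longer under 0.05, and without pigs 4, 10 and 22 it was 0.21. For F11R the interaction was -0.21 without those 3 piglets, with an unadjusted p under 0.05. In that fit 2 of 44 genes, CLDN17 and F11R, had such a p, beside 4.71% of all genes. With all piglets CLDN17, an anion-channel claudin, gave 0.25 (SE 0.13, unadjusted p = 0.0668). Of the 44, 25 were above 0, beside 49% of all genes. The intervals were wider here, and 28 of 44 lay within 0.5 log2 units of 0, again with no count over all genes. In none of the 6 comparisons between groups of piglets were the groups of any of the 44 genes free of overlap. Overlap was not counted over all genes, so it cannot be said whether this is particular to the 44.

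The rest of the junction machinery was read from a list of 40 further genes (linkers such as JUP, CTNND1 and VCL, nectins, desmosomal plaque proteins such as DSP, polarity proteins and adaptors), of which 27 had a cluster. None of the 27 passed the adjusted threshold in any of the 7 comparisons (limma). At an unadjusted p under 0.05 there was 1 within SA piglets for the diet, AMOTL2, an angiomotin-like scaffold, at 0.23 (SE 0.09, limma adjusted p = 1.00), beside 2.04% of all genes. There was also 1 in the interaction, NECTIN3, an adhesion molecule of adherens junctions, at -0.25 (SE 0.12, limma adjusted p = 1.00), beside 2.53% of all genes. Between CA and SA piglets over both diets, 11 of the 27 were above 0, beside 49.5% of all genes, with a median of -0.01. Between MCT and CON piglets 17 of the 27 were, beside 51% of all genes, with a median of 0.01.

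Beside the group comparisons, single piglets of the same group differed widely in some of these genes. The spread between piglets of the same group was measured as the SD of the residuals, over 24 piglets. Its median was 0.19 over the 44 genes and 0.20 over all 10882 genes (quartiles 0.15 and 0.26), and 18 of 44 lay above the median of all genes. Within the genes of the same brightness (the same whole log2 unit), CDH17 stood at the percentile 99.0 of the spread, CLDN4 at 97.4, CLDN7 at 95.6, CDH13 at 94.1, CLDN10 at 94.0, GJB1 at 92.1, CLDN5 at 92.1 and GJA1 at 91.1. At the other end CTNNB1 stood at 1.86, PKP2 at 5.27 and GJA10, dim throughout, at 0.0553. In all, 10 of the 44 genes stood above the upper quartile of the genes of their brightness and 12 below the lower one. These percentiles are a description and were not tested.

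CDH17 read 5.98, 6.49 and 7.40 at the lowest, median and highest in CA MCT piglets, 5.66, 6.42 and 6.80 in CA CON, 5.94, 6.46 and 7.39 in SA MCT and 5.47, 6.53 and 7.32 in SA CON piglets. Each group thus held piglets at both ends, and the whole range was 3.81-fold. CLDN7 read 4.99, 5.37 and 5.95 in CA MCT, 5.12, 5.59 and 5.73 in CA CON, 5.31, 5.52 and 6.08 in SA MCT and 4.64, 5.50 and 6.71 in SA CON piglets, a range of 4.20-fold. The widest group was SA CON, which held both the lowest and the highest of the 24 CLDN7 values. CLDN4 spanned 3.80-fold, CLDN10 3.22-fold, GJA5 3.13-fold and CLDN5 2.85-fold. By contrast CTNNA1, CTNNB1, CLDN18 and F11R stayed within 1.39-fold, TJP1 within 1.42-fold and OCLN within 1.62-fold. Among genes of the same brightness, however, CLDN18 stood at the percentile 69.7 of the spread, OCLN at 65.5 and CTNNA1 at 55.8. TJP1 stood at 35.8, F11R at 18.4 and CTNNB1 at 1.86. So CLDN18, OCLN and CTNNA1 did not spread less than most genes as bright.

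**Figure D4:**
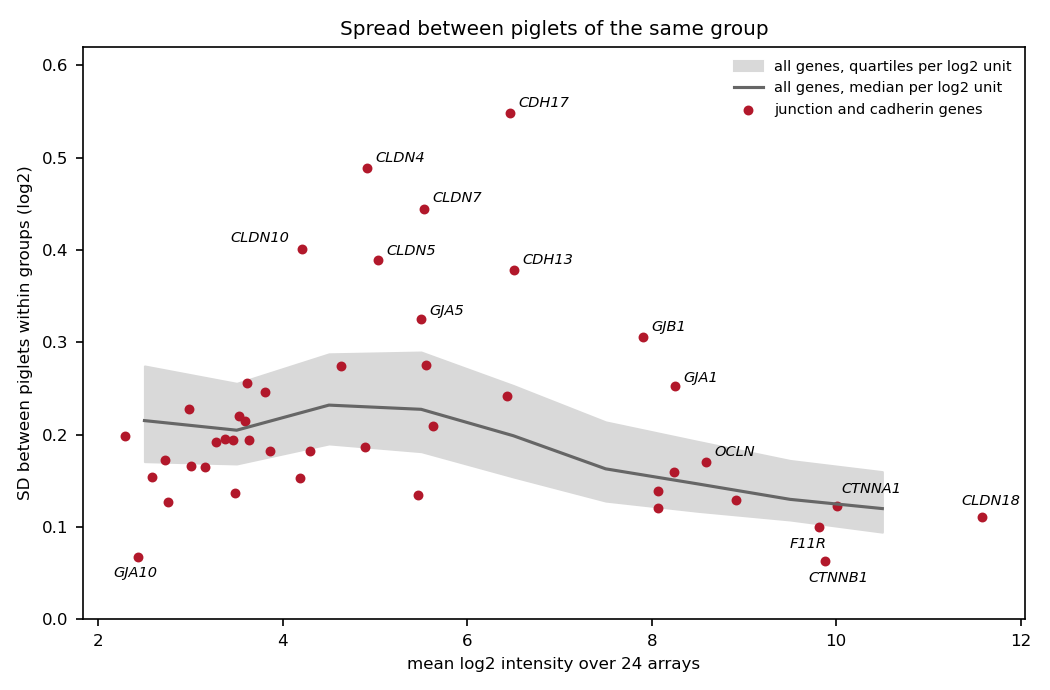
Spread of each of the 44 genes between piglets of the same group (vertical axis, residual SD in log2 units) against its mean log2 intensity (horizontal axis), with the median and quartiles of all genes per log2 unit in grey. CDH17, CLDN4 and CLDN7 lie highest above the grey band, and CTNNB1 and GJA10 lowest below it.

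Some of this spread was shared between genes. The deviations from the group means were correlated over the 24 piglets for the 23 genes that were above the array median on at least 12 arrays, as 253 pairs. Of these, 21 passed an adjusted p under 0.05 by Pearson's r and 9 by both r and Spearman's rho (permutation tests, 100000 resamples, Benjamini-Hochberg over 253). All points share arrays, so array quality enters both axes. Deviations were shuffled across all 24 piglets, although 4 group means had been subtracted beforehand. All permutation p-values of correlations given here, also those for marker lists, are therefore somewhat too small. Adjusted p close to 0.05 are thus uncertain. CDH17 and CLDN7 had r = 0.74 (permutation p = 3e-05, adjusted p = 0.00316) and rho = 0.74 (p = 2e-05, adjusted p = 0.00253). Without the 2 piglets farthest from the median r was 0.83, and without pigs 4, 10 and 22 it was 0.73. Within the groups it was 0.92 in CA MCT, 0.94 in CA CON, 0.84 in SA MCT and 0.63 in SA CON piglets, so piglets with more CDH17 had more CLDN7 in each group.

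CTNNA1 ran with CTNNB1, its binding partner at the adherens junction (r = 0.74, permutation p = 5e-05, adjusted p = 0.00316; rho = 0.83, p = 1e-05, adjusted p = 0.00253). That p of 1e-05 is the smallest the resampling can give. Without the 2 farthest piglets r was 0.65, without pigs 4, 10 and 22 it was 0.79, and within groups it lay between 0.62 and 0.89. CTNNA1 also ran with TJP1 (r = 0.72, permutation p = 5e-05, adjusted p = 0.00316; rho = 0.74, adjusted p = 0.00506) and with OCLN (r = 0.72, permutation p = 0.0001, adjusted p = 0.00422; rho = 0.73, adjusted p = 0.00717). Within SA CON piglets these last correlations were 0.20 and -0.09, while in the other 3 groups they were at least 0.74. The remaining pairs that passed both tests were CLDN12 with CLDN18 (r = 0.71), CDH17 with CTNNA1 (0.68), CLDN4 with CLDN12 (0.61), CDH17 with CTNNB1 (0.59) and CLDN5 with CLDN11 (0.58), with adjusted p from 0.00542 to 0.0479 by r and from 0.00717 to 0.0327 by rho. OCLN and TJP1, which encode occludin and the scaffold ZO-1, passed by Pearson's r alone (0.67), with 0.92 in CA MCT but -0.86 in SA CON piglets.

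**Figure D5:**
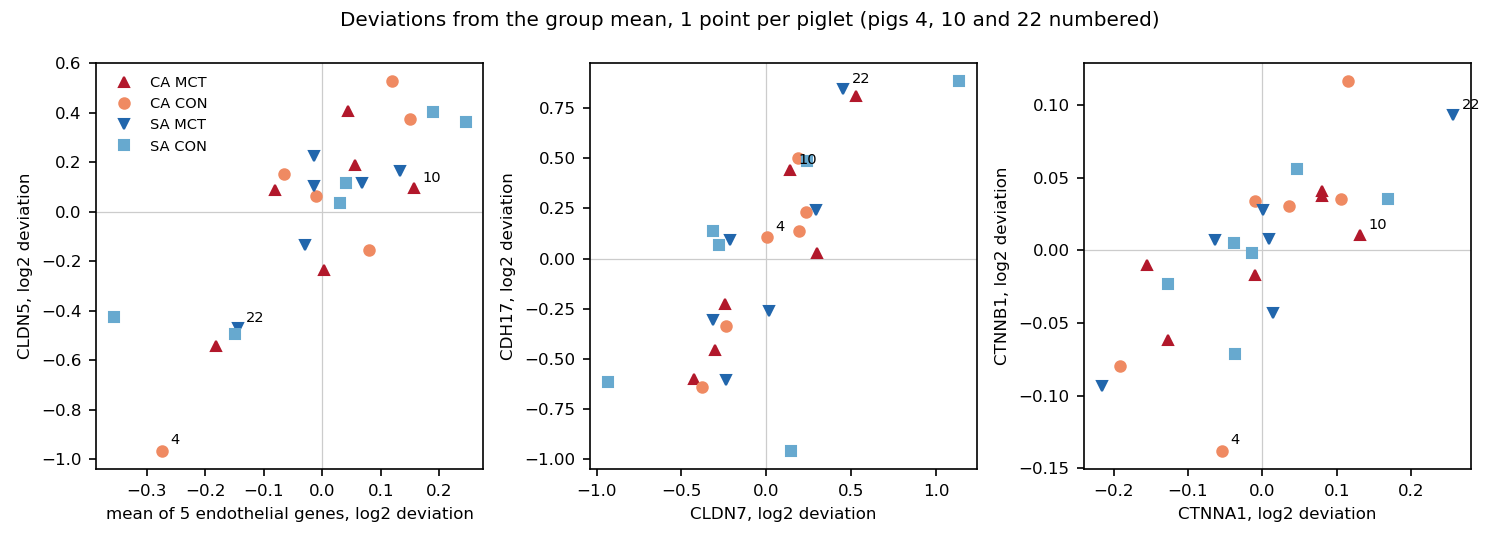
Deviations from the group mean in log2 units, 1 point per piglet and 1 symbol per group, for CLDN5 against the mean of 5 endothelial genes (left), CDH17 against CLDN7 (middle) and CTNNB1 against CTNNA1 (right). All 3 relations slope upward (r = 0.81, 0.74 and 0.74 over 24 piglets), and pigs 4, 10 and 22 are numbered.

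The same deviations were set against the mean of each of 6 marker lists, as 138 relations of 23 genes. By Pearson's r 17 passed an adjusted p under 0.05, and only CLDN5 with the endothelial list also passed by rho. For CLDN5 r was 0.81 (permutation p = 1e-05, the smallest the resampling can give, adjusted p = 0.00138) and rho 0.73 (p = 7e-05, adjusted p = 0.00966). Without the 2 piglets farthest on the endothelial axis r was 0.76, without pigs 4, 10 and 22 it was 0.78, and it lay between 0.68 and 0.93 within the 4 groups. GJC1, connexin 45 of vessels and smooth muscle, passed by r alone (0.72, adjusted p = 0.00483), and was -0.58 within CA MCT piglets. For GJA5 and the endothelial list r was 0.57 (adjusted p = 0.0457; rho = 0.36, adjusted p = 0.244), and 0.25 without the 2 farthest piglets, so that relation rests on them. CLDN5 passed by r alone with the fibroblast list too (r = 0.55, permutation p = 0.00552, adjusted p = 0.0457). There rho was 0.55 (adjusted p = 0.105), and r was -0.33 within SA MCT piglets.

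CLDN7 ran against the list of parietal cell genes (r = -0.68, permutation p = 0.00065, adjusted p = 0.0224; rho = -0.49, permutation p = 0.0148, adjusted p = 0.146), and CDH17 likewise (r = -0.56, permutation p = 0.00336, adjusted p = 0.0457; rho = -0.47, permutation p = 0.0206, adjusted p = 0.149). Without the 2 piglets farthest on the parietal axis r was -0.31 for CLDN7 and -0.28 for CDH17, so both relations rest on these piglets. CDH17 also ran against the smooth muscle list (r = -0.64, permutation p = 0.00063, adjusted p = 0.0224; rho = -0.62, permutation p = 0.00151, adjusted p = 0.0521), and r was -0.49 without the 2 farthest piglets. With the general epithelial list r was 0.55 for CDH17 (adjusted p = 0.0457; rho = 0.53, adjusted p = 0.142) and 0.55 for CLDN7 (adjusted p = 0.0457; rho = 0.37, adjusted p = 0.241), and both were below 0 within CA CON piglets. GJB1 ran with the general epithelial list (r = 0.63, permutation p = 0.00097, adjusted p = 0.0237; rho = 0.64, permutation p = 0.00101, adjusted p = 0.0521), with 0.98 in CA MCT but 0.01 in CA CON piglets. GJB1 also ran against the parietal list (r = -0.56, permutation p = 0.00524, adjusted p = 0.0457), where rho was -0.50 (adjusted p = 0.146). Without the 2 piglets farthest on the parietal axis that r was -0.24. GJA1 ran with the fibroblast list (r = 0.62, permutation p = 0.00134, adjusted p = 0.0264; rho = 0.60, permutation p = 0.00215, adjusted p = 0.0593), and r was 0.71 without the 2 farthest piglets. The part of cell makeup in the spread of these genes was not tested beyond these values.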

How the data were processed

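Total RNA of oxyntic mucosa from 24 piglets was hybridised to Affymetrix Porcine Gene ST arrays, 1 array per piglet. The intensity values deposited by the authors were on a linear scale and had been summarised by Robust Multichip Analysis in the Expression Console, and the genome build behind the probes is not given in the sources used here. Of 27558 clusters, 11939 had 1 gene symbol in GEO's platform annotation (416 had several and were not used), which gave 10882 genes, each by its brightest cluster. Values were turned to log2, and 4 group means were fitted by limma 3.58.1 in R 4.3.3 (lmFit, eBayes, Benjamini-Hochberg over 10882 genes) for 7 comparisons. Intensities give no read depth, so the number of arrays limits the precision. The study's gene set enrichment was not run. Piglets are the replicates. The protocol text of the labels speaks of jejunal loops at a later age and of another trial's piglet number, and the tissue and age here follow the sample labels.

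Named genes were those at an adjusted p under 0.05, for each comparison the 2 members at either end of limma's moderated t, and a list of 20 junction genes of textbook roles, of which 14 had a cluster. Members and lists were chosen with earlier results of these data known. The permutation tests of correlations were added after the values were seen. The fit was tested on simulated data. Alternatives were another cluster rule, a filter on dim clusters, array weights, a repeated quantile normalization, an intensity trend, all clusters, fits on 2 groups, and piglets left out.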

Additional observations from a re-analysis of the deposited data

Results flagged for a closer look

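In 13 of the 176 combinations of gene and group, 1 piglet lay far from the other 5 by Dixon's ratio of gap to range at its 95% critical value. Chance alone flags about 1 in 20 groups. Of the 13, 6 were pig 4 and 4 were pig 10, whose arrays stood apart over all genes, and 3 were other piglets.

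Pig 4 (CA CON) was highest of its group in GJB1 at 8.49, CLDN20 at 4.38 and CTNNA2 at 3.56, and lowest in GJA5 at 4.41, CDH24 at 4.25 and CLDN23 at 4.79. Pig 10 (CA MCT) was highest in CLDN2 at 4.55, DSC2 at 2.78 and GJA10 at 2.63, and lowest in CLDN10 at 3.46. The other 3 were the highest of their groups: CLDN10 in pig 20 (SA MCT) at 4.92, CTNNA3 in pig 3 (CA CON) at 3.90 and DSC1 in pig 18 (SA CON) at 3.20. All are log2 intensities. The GJA5 and CLDN20 values of pig 4 carry part of the CA and SA differences given above with and without that piglet. Array quality and tissue content of single piglets were not tested as causes.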

How the results depend on the processing

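Across 36 fits none of the 44 genes passed the adjusted threshold in any of the 7 comparisons (limma), with each piglet left out in turn included. The unadjusted p of GJA5 for CA minus SA over both diets lay between 0.00497 and 0.0376 over its 31 alternatives and under 0.05 in all of them. That of DSC1 was under 0.05 in 10 of 24 fits without 1 piglet, and those of CDH12 in 19 of 24 within CON for CA minus SA, in 22 of 24 within CA for MCT minus CON and in 14 of 24 for the interaction. That of CLDN20 within CON was in 10 of 24, that of CDH15 within SA in 11 of 24 and that of F11R within CON in 1 of 24. Under array weights 4 genes had an unadjusted p under 0.05 for CA minus SA over both diets (beside 7.54% of all genes). They were DSC1, GJA5, GJB1 and GJC1. Without pigs 4, 10 and 22 there were 3 (5.65%), against 2 by the fit as reported. The filter on dim clusters left 26 of the 44 genes.

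These differences changed sign. With the mean of all clusters, MCT minus CON in CDH22 was 0.00675. With array weights, MCT minus CON was 0.00488 in CDH2 and -0.000267 in CTNNA1, and CA minus SA was 0.0528 in CLDN5. With quantile normalization repeated, CA minus SA was 0.0184 in GJA1 and MCT minus CON 0.00506 in OCLN. Without pigs 4, 10 and 22, CA minus SA was 0.00439 in CLDN5, and MCT minus CON was -0.0141 in CTNNA1, -0.00373 in CTNNB1 and -0.00450 in TJP1. The cause was not tested.

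With each piglet left out in turn, CA minus SA ranged from -0.141 to 0.0438 in CDH17, -0.137 to 0.0578 in CLDN4, -0.0883 to 0.0609 in CLDN5, -0.00795 to 0.0393 in CTNNA1, -0.0547 to 0.0432 in GJA1 and -0.0107 to 0.0387 in TJP1. MCT minus CON ranged from -0.0667 to 0.00306 in CDH2, -0.153 to 0.0417 in CLDN4, -0.120 to 0.0309 in CLDN5, -0.108 to 0.0988 in CLDN7, -0.0311 to 0.0800 in GJB1, -0.0370 to 0.0323 in OCLN and -0.0397 to 0.0149 in PKP2, and within CA from -0.169 to 0.00826 in CLDN20. No paired analysis was possible because the pig numbers are not shared between groups. Litters were balanced over the groups, but the labels used here do not say which piglet came from which litter, pen or sex, so none of these could be a block.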
